A study of Mus musculus with 5 samples.

Results

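The miR-322, miR-503 and miR-351 cluster is a group of microRNA (miRNA) genes on the mouse X chromosome. Its 8 strands described here were mmu-miR-322-5p, mmu-miR-322-3p, mmu-miR-503-5p, mmu-miR-503-3p, mmu-miR-351-5p, mmu-miR-351-3p, mmu-miR-542-3p and mmu-miR-450a-5p, written without the species prefix from here on. They were chosen by name and genomic position, and all 8 were found among the 1966 mature miRNAs of the count table. Each was detected, 6 of them in all 5 libraries. In these vesicles the cluster came down to a pair of abundant strands, miR-351-5p and miR-322-3p, whose levels were low in both libraries of low sequencing depth and overlapped between the treatments.

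The libraries held small RNA of extracellular vesicles (EVs, membrane particles that cells release) from mesenchymal stem cells of C57BL/6-GFP transgenic mice. All cells spent 48 h in reduced-serum medium, whose small EVs were pelleted by ultracentrifugation after passing a filter. The not freeze-dried group has 2 libraries of such EVs. The labels name 3 storage buffers, without and with trehalose, and do not give the one used for these. The freeze-dried group has 3 libraries of EVs that were diluted in phosphate-buffered saline with 25 mM trehalose (a protective sugar), frozen at -80 °C, dried overnight and rehydrated for 1 h. The labels do not say that the replicates are separate cultures, so each p-value covers the spread of these libraries alone, which may be technical. Levels are relative to all miRNA of a library, so a change in vesicle number or in total miRNA per vesicle cannot be seen.

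As background, each miRNA hairpin is cut into a pair of strands, 5p and 3p, of which usually one is kept and guides repression of messenger RNAs through its seed, bases 2 to 8. Mouse miR-322-5p corresponds to human miR-424-5p. It carries the seed of the miR-15/16 family, which miR-503-5p shares up to base 7, and together with miR-503-5p is known for slowing the cell cycle, for example when muscle precursors leave the cycle, while miR-351-5p carries the seed of the miR-125 family. Strand choice and the ratios between hairpins of one locus can be read within a library, without any scaling between libraries. Here both are read from vesicle counts, without a library of the producing cells. Strand retention in the cell, export into vesicles and unequal counting of different sequences therefore cannot be told apart.

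In GENCODE M21 (GRCm38) the locus has 7 hairpin genes on the minus strand of chromosome X, between bases 53047997 and 53054349, a span of 6353 bases. In the direction of transcription Mir322 comes first (chrX:53054255-53054349), then Mir503 (chrX:53053984-53054054) after 200 bases and Mir351 (chrX:53053255-53053353) after another 630. Mir542 (chrX:53049403-53049487) follows 3767 bases further on, and behind it Mir450-2 (chrX:53048299-53048367), Mir450-1 (chrX:53048154-53048244) and Mir450b (chrX:53047997-53048078). None of the 7 overlaps another annotated gene. The long noncoding RNA gene Gm28730 lies between Mir351 and Mir542, and the noncoding gene C430049B03Rik lies upstream of Mir322, both on the same strand.

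The mature sequences of all 13 strands of the locus were matched in RefSeq (GRCm38.p6). The 8 described here are shown with the seed in capitals, because the seeds divide the cluster into unlike targeting units.
miR-322-5p: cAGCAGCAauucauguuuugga
miR-503-5p: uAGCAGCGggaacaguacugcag
miR-351-5p: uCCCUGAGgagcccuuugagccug
miR-322-3p: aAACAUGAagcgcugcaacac
miR-503-3p: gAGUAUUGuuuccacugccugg
miR-351-3p: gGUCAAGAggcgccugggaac
miR-542-3p: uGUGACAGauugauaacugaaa
miR-450a-5p: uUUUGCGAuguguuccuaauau
The relatives outside the locus are shown for comparison of the seeds.
miR-16-5p: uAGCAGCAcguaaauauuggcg
miR-15b-5p: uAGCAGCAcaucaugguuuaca
miR-125b-5p: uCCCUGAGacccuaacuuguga
miR-125a-5p: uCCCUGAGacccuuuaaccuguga
Counted from 1 at the 5′ end and over the first 8 bases, miR-322-5p differed from miR-16-5p by U1C, outside the seed, and miR-503-5p differed from it by A8G, the last base of the seed. miR-125b-5p and miR-351-5p had 0 differences over these 8 bases. miR-450a-5p has identical copies in Mir450-1 and Mir450-2, so its counts cannot be divided between them. How the counting treated reads with several matches is not given in the sources used here. The Mir322 hairpin is printed, as the strand choice below turns on it, with both mature strands in capitals, the 5p strand first.
Mir322: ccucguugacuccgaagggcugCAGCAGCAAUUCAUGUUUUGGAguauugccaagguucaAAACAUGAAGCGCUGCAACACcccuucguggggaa

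Library totals came to 912080 and 131507 counts without freeze-drying (replicates 1 and 2) and to 2914305, 2473178 and 192450 counts with it (replicates 1 to 3). Not freeze-dried replicate 2 and freeze-dried replicate 3, below 500000 counts, are called shallow and the others deep, a division taken over from an earlier look at these data. Each group holds 1 shallow library. The labelled source was checked on 7 miRNAs abundant in mesenchymal cells (such as miR-21a-5p, miR-143-3p and miR-199a-3p), which all had counts in every library and took 21.7% and 21.4% in not freeze-dried EVs and 17.5%, 17.0% and 15.2% in freeze-dried ones. Lists of other cell types took little. Their ranges were 0.0758% to 0.170% for red cell miRNAs, 0% to 0.0278% for leukocyte miRNAs (with miR-142a-3p and miR-142a-5p at 0), 0.322% to 0.469% for striated muscle miRNAs, 0.00912% to 0.0296% for the hepatocyte miR-122-5p, 0% to 0.00974% for epithelial miRNAs (miR-200c-3p, miR-141-3p and miR-429-3p at 0), and 0.00623% to 0.0403% for the endothelial miR-126a-3p.

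The cluster took 1.68% to 2.08% of all miRNA counts in the deep libraries and at most 0.671% in the shallow ones. Its 8 strands made up 2.02% and 0.671% in not freeze-dried EVs and 1.68%, 2.08% and 0.494% in freeze-dried EVs. Each exact 95% binomial interval was narrow (0.628% to 0.717% in the shallowest library), and such intervals cover counting error only. The groups overlapped fully, with means of 1.34% ± 0.95 (SD, n = 2) and 1.42% ± 0.82 (SD, n = 3; exact permutation p = 1, two-sided). With 2 libraries against 3, no exact p here can be below 0.2, and over the 9 exact tests given the lowest Benjamini-Hochberg value is 0.60.

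miR-351-5p, the strand with the miR-125 seed, was the most abundant member. Levels are given as CPM (counts per 1e+06) scaled by TMM (trimmed mean of M-values, which sets libraries to a common scale), and the strands compared are 21 to 24 nt long. It stood at 9292 and 3664 CPM in the not freeze-dried libraries and at 8184, 8403 and 3018 CPM in the freeze-dried ones. The 2 low values were those of the shallow libraries, and the groups overlapped. It ranked 26th to 29th among all miRNAs of the deep libraries and 49th and 51st in the shallow ones.

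miR-322-3p, the strand opposite the one with the miR-15/16 seed, came second. It stood at 6846 and 1640 CPM in not freeze-dried EVs and at 7482, 7970 and 1930 CPM in freeze-dried EVs, again low in the shallow library of each group. miR-351-5p was above miR-322-3p in 5 of 5 libraries, by 0.49 ± 0.44 on the log2 scale (SD over 5 libraries). Together these strands held 78.4% to 91.4% of the cluster's counts.

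miR-503-5p, whose seed is that of miR-15/16 but for its last base, followed with 710 and 291 CPM in not freeze-dried EVs and 884, 2166 and 262 CPM in freeze-dried EVs. Freeze-dried replicate 2 was highest and both shallow libraries were lowest. It lay below miR-322-3p in 5 of 5 libraries, by 2.72 ± 0.55 on the log2 scale (SD over 5 libraries).

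The other 5 strands had lower means and their order was not fixed. miR-351-3p, the less abundant strand of its hairpin, ranged from 120 to 826 CPM with a median of 617, and lay below miR-503-5p in 4 of 5 libraries. miR-450a-5p stood at 295, 299 and 311 CPM in 3 libraries and at 183 CPM in freeze-dried replicate 2. It had 0 counts in freeze-dried replicate 3, where 3 counts, the limit a count of 0 allows, equal 17.1 CPM. miR-322-5p had 205 and 1 counts in not freeze-dried EVs and 1325, 398 and 11 in freeze-dried ones, a range of 7.67 to 482 CPM. miR-503-3p ranged from 5.69 to 181 CPM, the lowest value being 1 count in freeze-dried replicate 3. miR-542-3p, known from other work as a repressor of survivin, was the scarcest member, with 23 and 0 counts in not freeze-dried EVs and 101, 307 and 3 in freeze-dried ones. Neighbours in the order from miR-503-5p down to miR-542-3p exchanged places in 1 or 2 of the 5 libraries each, so these levels did not separate beyond their spread.

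**Figure D1:**
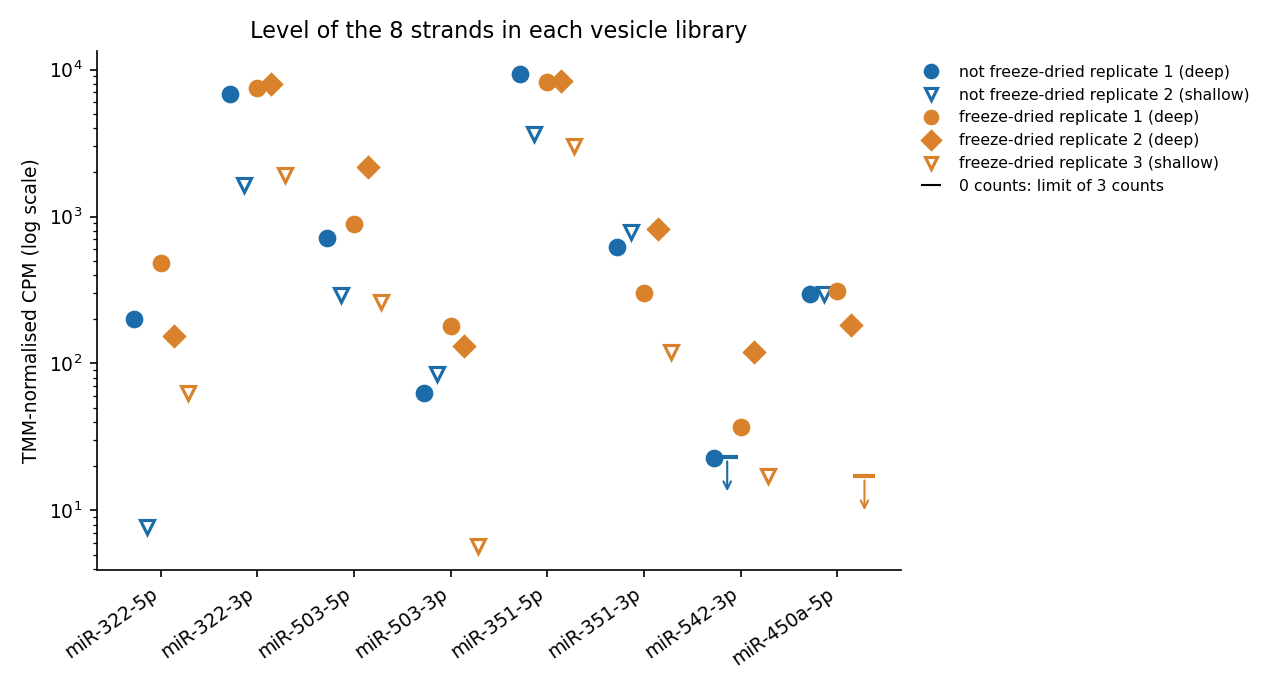
TMM-normalised CPM (log axis) of each of the 8 strands in the 5 libraries: blue, not freeze-dried; orange, freeze-dried; open triangles, the shallow library of each group; a bar with an arrow, the limit that 0 counts allow. For miR-322-3p and miR-351-5p the open triangles lie apart from the filled symbols, while blue and orange filled symbols lie together.

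Of the locus's other 5 strands, 4 had a count, and miR-450b-3p alone had one in every library. It stood at 327 and 107 CPM in not freeze-dried EVs and 190, 111 and 114 CPM in freeze-dried EVs, and shares its seed, UUGGGAA, with miR-450a-1-3p. miR-450a-1-3p had 86 counts in not freeze-dried replicate 1 and 0 elsewhere. miR-450b-5p had 55 counts in freeze-dried replicate 1 alone, miR-542-5p had 1 count in freeze-dried replicate 3 alone, and miR-450a-2-3p was at 0 throughout. The limit that 0 counts allow was 1.09 CPM in the deepest library and 23.0 CPM in the shallowest.

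Among these vesicle counts, strand choice was strong for miR-322, miR-503 and miR-351, the 3 hairpins with at least 20 counts in every library. Each kept the same side in all 5 libraries, and of the 3 only miR-322 kept its 3p strand. Elsewhere in the locus, miR-450b had counts on its 3p strand alone but for 55 in freeze-dried replicate 1. It had only 14 counts in not freeze-dried replicate 2. miR-322-3p held 97.1% and 99.5% of its hairpin's counts without freeze-drying and 93.9%, 98.1% and 96.9% in freeze-dried EVs. The exact 95% binomial interval was 97.4% to 99.99% on the 215 counts of the shallowest library and 93.6% to 94.3% on the 21886 counts of freeze-dried replicate 1. The 5p strand, which bears the miR-15/16 seed, was 1 in 215 counts in one library and 1325 of 21886 in another. The group means were 98.3% ± 1.7 (SD, n = 2) and 96.3% ± 2.1 (SD, n = 3), a difference of -2.04 points (exact permutation p = 0.40). Leaving out not freeze-dried replicate 1 or 2 gave -3.23 or -0.85, leaving out freeze-dried replicate 1 gave -0.86, and pooling the counts of each group gave -1.23.

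miR-503 and miR-351 kept their 5p strands. miR-503-5p held 91.9% and 77.6% of its hairpin's counts without freeze-drying and 83.0%, 94.3% and 97.9% in freeze-dried EVs. The low value came from 49 counts, with an exact binomial interval of 63.4% to 88.2%. miR-351-5p held 93.8% and 82.4% without freeze-drying and 96.4%, 91.0% and 96.2% in freeze-dried EVs. In both hairpins not freeze-dried replicate 2 gave the lowest 5p share. The differences between groups, 7.01 points for miR-503 and 6.46 for miR-351, did not exceed the spread of the libraries (exact permutation p = 0.40 for each). Both rest on that library: without it they were -0.148 and 0.786 points.

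**Figure D2:**
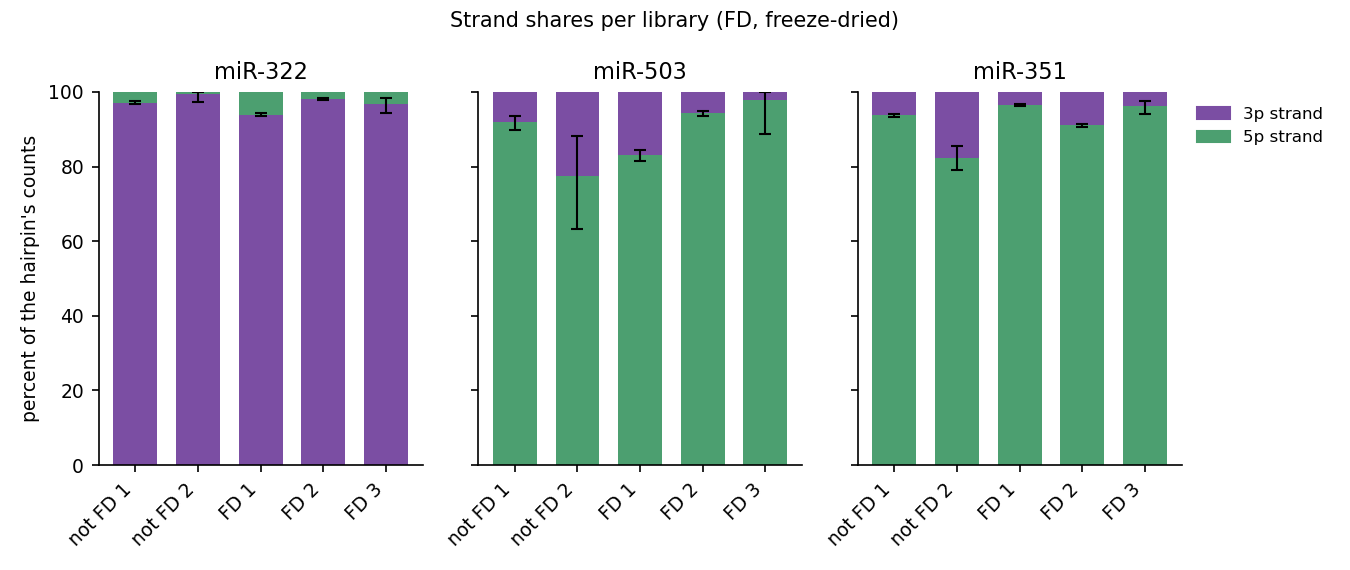
Percent of each hairpin's counts on its 3p (purple) and 5p (green) strand per library (FD, freeze-dried), with exact 95% binomial intervals of the dominant strand. miR-322 is nearly all 3p (93.9% to 99.5%), miR-503 and miR-351 mostly 5p.

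Among all hairpins with at least 20 counts over both strands in every library, 117 in number, 53 (45.3%) were dominated by the 3p strand, and 106 kept the same side in all 5 libraries. The median dominant share was 99.1%, so miR-322 (mean 97.1%, 76th in order), miR-351 (92.0%, 90th) and miR-503 (88.9%, 93rd) lay in the less one-sided part of the range. The miR-16 hairpins stood at 99.5%, and the miR-125b hairpins at 92.7%, both 5p.

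The hairpins of the locus did not contribute equal counts. miR-322, miR-503 and miR-351, the first 3 hairpins, held 94.1% to 97.9% of the locus's counts in each library. miR-351 and miR-322, summed over both strands, averaged 7042 and 5355 CPM. miR-503, which lies between them, averaged 956 CPM. Past the gap of 3767 bases, miR-542 averaged 40.3 CPM, miR-450a 235 CPM and miR-450b 174 CPM.

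Relative to miR-322-3p, miR-503-5p stood at 10.4% and 17.8% in not freeze-dried EVs and at 11.8%, 27.2% and 13.6% in freeze-dried EVs. The log2 ratio (0.5 added to each count) differed by 0.26 between the groups, within the spread (exact permutation p = 0.80). miR-351-5p stood at 136% and 223% of miR-322-3p in not freeze-dried EVs and at 109%, 105% and 156% in freeze-dried EVs. That log2 ratio was 0.52 lower in freeze-dried EVs on average, a difference of -0.52, also within the spread (exact permutation p = 0.40). The ratio was highest in both shallow libraries, where miR-322-3p was the lower of the pair by the wider margin. The group difference became -0.87 when not freeze-dried replicate 1 was left out and -0.16 when replicate 2 of that group was. The log2 ratio of miR-542-3p to miR-322-3p was -8.21 and -8.74 in not freeze-dried EVs and -7.66, -6.06 and -6.60 in freeze-dried EVs, a difference of 1.71 (exact permutation p = 0.20, adjusted 0.60 over the 9 tests). Its -8.74 comes from 0 counts, whose limit of 23.0 CPM, set against 1640 CPM of miR-322-3p in that library, would put it above freeze-dried replicates 1 and 3, so that a separation of the groups was not detectable at this depth. The difference was 1.26 with 1 added to each count and 2.82 with 0.1 added. miR-450a-5p went the other way relative to miR-322-3p, at 4.31% and 18.2% in not freeze-dried EVs and at 4.16%, 2.3% and 0% in freeze-dried EVs. These values did not overlap, the nearest pair being 4.31% and 4.16%, while the CPM of this strand did overlap between the groups. This ratio was not among those chosen for a test. Even full separation of 2 libraries from 3 can give no exact p below 0.2, so the values are a description.

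**Figure D3:**
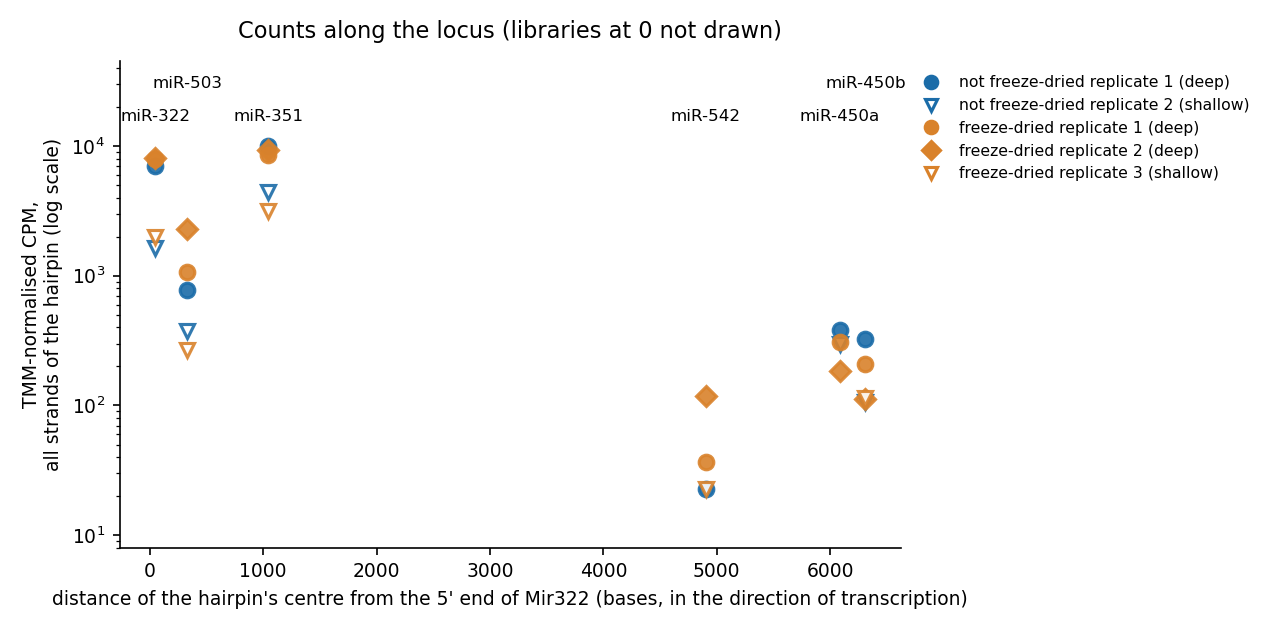
TMM-normalised CPM of each hairpin, all strands summed (log axis), against its distance from the 5′ end of Mir322 in bases; miR-450a is placed between its 2 hairpins. miR-322 and miR-351 lie highest and the hairpins past Mir351 lie lowest, in deep (filled) and shallow (open) libraries alike.

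Freeze-drying changed no member past the threshold. edgeR's quasi-likelihood test called 0 of the 8 members, which all passed the low-count filter. Over all 327 miRNAs tested it called 0% higher and 0% lower. At an unadjusted p under 0.05 edgeR had 0 members and 9 miRNAs in all, DESeq2 had 0 members of 22 and limma-voom 0 of 15. The members' lowest adjusted p was 0.98 with edgeR. Fitted folds lay above 1 for 6 of 8 members, against 51.1% of all tested miRNAs, and the median log2 fold change was 0.50 against 0.02 over all. The CPM of the groups overlapped for all 8 members, against 17.4% of all tested miRNAs without overlap. Among the marker lists the groups did not overlap for the mesenchymal, leukocyte and epithelial miRNAs, whose part in these values was not tested.

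For the abundant strands the intervals were wide, and each group holds a shallow library. The log2 fold change of miR-351-5p was 0.01 (SE 0.55, 95% interval -1.29 to 1.31), with no stable sign, since it was -0.04 with RLE size factors and -0.21 with depth class in the model. miR-322-3p had 0.45 (SE 0.87, interval -1.79 to 2.68), which became -0.27 without not freeze-dried replicate 2 and 1.89 without not freeze-dried replicate 1. miR-503-5p had 1.14 (SE 0.87, interval -0.86 to 3.14), which became 1.99 or 0.62 on leaving out not freeze-dried replicate 1 or 2, and 0.19 on leaving out freeze-dried replicate 2. With depth class as a term miR-322-3p had 0.20 (SE 0.23). The minor strands miR-322-5p (1.13, SE 1.51), miR-503-3p (0.54, SE 1.75), miR-351-3p (-0.74, SE 0.81), miR-542-3p (2.24, SE 2.55) and miR-450a-5p (-0.84, SE 1.51) had edgeR adjusted p-values of 0.98 and intervals that span at least a fold of 2 in each direction. Without 1 library miR-322-5p ranged from 0.04 (without freeze-dried replicate 1) to 4.97 and miR-542-3p from 1.1 (without freeze-dried replicate 2) to 9.36, both highest without not freeze-dried replicate 1.

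The difference that the data do show in this cluster ran with library depth. With group and depth class in one edgeR model, a test chosen after the data were examined, miR-322-3p was lower in the shallow libraries by a log2 difference of -2.03 (SE 0.25, interval -2.59 to -1.46, adjusted p = 0.0036 over the 327 miRNAs). miR-351-5p was lower by -1.41 (SE 0.24, interval -1.96 to -0.86, adjusted p = 0.017). These 2 of 8 members passed, against 1.53% of all tested miRNAs called lower in the shallow libraries. The other 3 of those, named here after their values were seen, were miR-10a-5p, miR-100-5p and miR-29a-3p. All 5 called lower, the 2 members included, were among the 89 miRNAs whose mean reached 1000 CPM. Of the 327 tested, another 5 were called higher in the shallow libraries. miR-503-5p had -1.99 (SE 0.60, adjusted p = 0.18) and did not pass in this edgeR fit. It did pass, making 3 members, with DESeq2 (adjusted p = 0.017), without the count filter (0.0095), without the group term (0.030) and without freeze-dried replicate 1 (0.029). The fitted value was below 0 for 8 of 8 members, against 48.6% of all tested, and the members' median was -2.07 against 0.03 over all. These strands share a locus and are not independent of each other. In the shallow not freeze-dried replicate 2, miR-450a-5p (299 CPM), miR-351-3p (782 CPM) and miR-503-3p (84.3 CPM) lay within the range of the deep libraries. The depth term of miR-450a-5p was -3.08, and -0.12 without freeze-dried replicate 3. In CPM both shallow libraries lay below all deep ones for 5 of 8 members (miR-322-5p, miR-322-3p, miR-503-5p, miR-351-5p and miR-542-3p), against 15.3% of all tested miRNAs and 24.7% of the 89 whose mean reached 1000 CPM. For miR-542-3p this rests on 0 counts, whose limit of 23.0 CPM lies above the lowest deep value of 22.6 CPM, so it is not established for that strand.

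The mean over deep libraries was 4.16 times that over shallow ones for miR-322-3p, 4.53 times for miR-503-5p and 2.58 times for miR-351-5p. With each library thinned to the same total, 2 members were still called lower. Both calls were lost with limma-voom (adjusted p = 0.13 for miR-322-3p and 0.20 for miR-351-5p). They were also lost without not freeze-dried replicate 1, not freeze-dried replicate 2 or freeze-dried replicate 3. Each of these leaves 1 library in a treatment group or depth class. The size held there, at -1.99, -2.08 and -2.20 for miR-322-3p and -1.45, -1.53 and -1.48 for miR-351-5p. Leaving out freeze-dried replicate 1 or 2 instead gave 3 or 2 members called lower. Beside this, the red cell list took 0.120% and 0.170% of the counts in the shallow libraries and 0.0758% to 0.0973% in the deep ones, and the mesenchymal and muscle lists overlapped between them. The part of these lists in the result was not tested, and depth cannot be told apart from whatever else differed between those libraries.

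**Figure D4:**
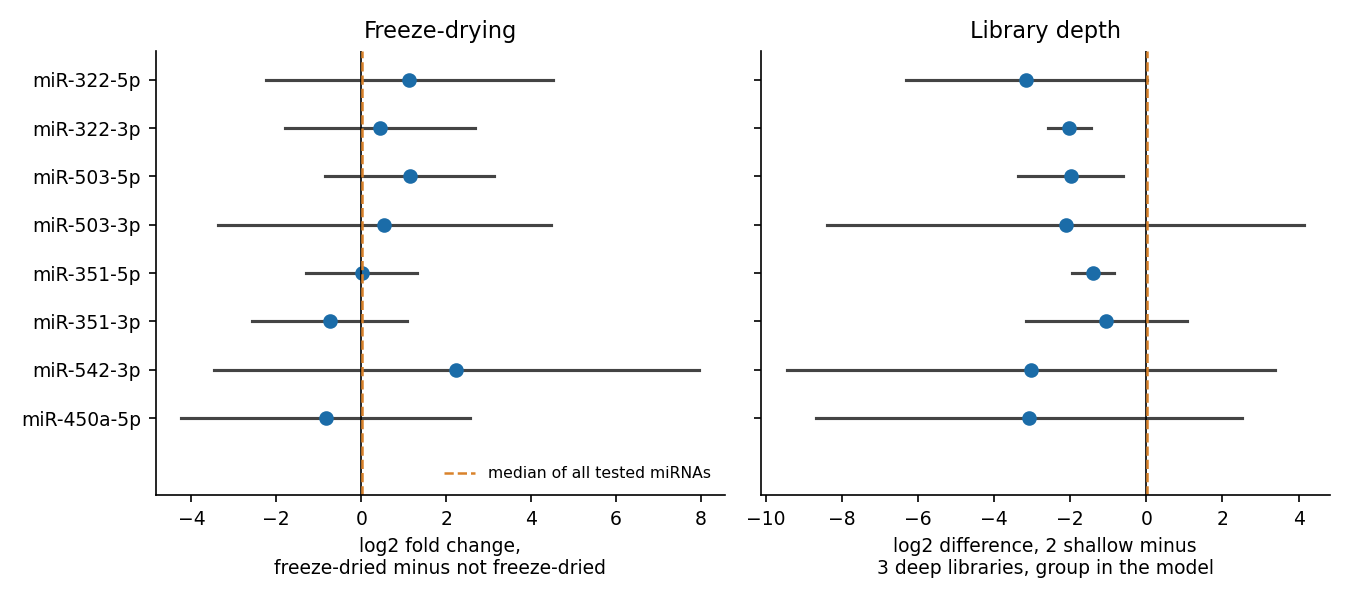
Log2 differences (points) with 95% intervals (lines) of the 8 strands from edgeR, left for freeze-dried minus not freeze-dried and right for 2 shallow minus 3 deep libraries; the dashed line is the median of all 327 tested miRNAs. On the left every interval includes 0, and on the right the intervals of miR-322-3p (-2.03), miR-503-5p (-1.99) and miR-351-5p (-1.41) lie below 0, unadjusted for the number of miRNAs.

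The relatives of these strands outside the locus were not called by this test between deep and shallow libraries. miR-16-5p, the main bearer of the miR-15/16 seed, stood at 4528 and 5818 CPM in not freeze-dried EVs and at 3568, 3190 and 3650 CPM in freeze-dried EVs. Its depth term was 0.22 (SE 0.24, adjusted p = 0.88 with edgeR). miR-15b-5p, from the same miRNA cluster as one miR-16 copy, had a depth term of -0.23 (SE 0.42). For the miR-125 seed, miR-125b-5p and miR-125a-5p had depth terms of -0.49 (SE 0.22) and -0.28 (SE 0.24), neither past the threshold. Yet miR-125b-5p too was lower in both shallow libraries (31115 and 32734 CPM) than in all deep ones (43014 to 47063 CPM). Together, miR-125a-5p and miR-125b-5p took 4.18% and 4.85% of the counts in the shallow libraries against 5.90% to 7.22% in the deep ones. The difference between these terms and those of the cluster was not itself tested.

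The share of each seed that the cluster supplied differed between libraries. Each seed family was a fixed list of relatives, and other rows were not searched for its seed. From the listed miRNAs with bases 2 to 7 of the miR-15/16 seed, miR-322-5p and miR-503-5p together supplied 12.0% and 3.89% without freeze-drying. In freeze-dried EVs they supplied 19.2%, 35.9% and 5.76% of those counts. The shallow libraries were lowest in each group, and the groups overlapped (exact permutation p = 0.40). Most of it was miR-503-5p, at 3.79% to 33.5%, while miR-322-5p supplied 0.0998% to 6.79%. miR-497a-5p (0 to 66 counts) added little, and miR-195a-5p, miR-195b, miR-6342, miR-6353 and miR-6419 were at 0. miR-15a-5p (0 to 129 counts) added little except in freeze-dried replicate 3. Its 36 counts there compare with 46 of miR-503-5p and 11 of miR-322-5p. Of the miR-125 seed, miR-351-5p supplied 13.1% and 8.0% in not freeze-dried EVs and 11.6%, 10.8% and 5.37% in freeze-dried EVs (exact permutation p = 0.80).

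**Figure D5:**
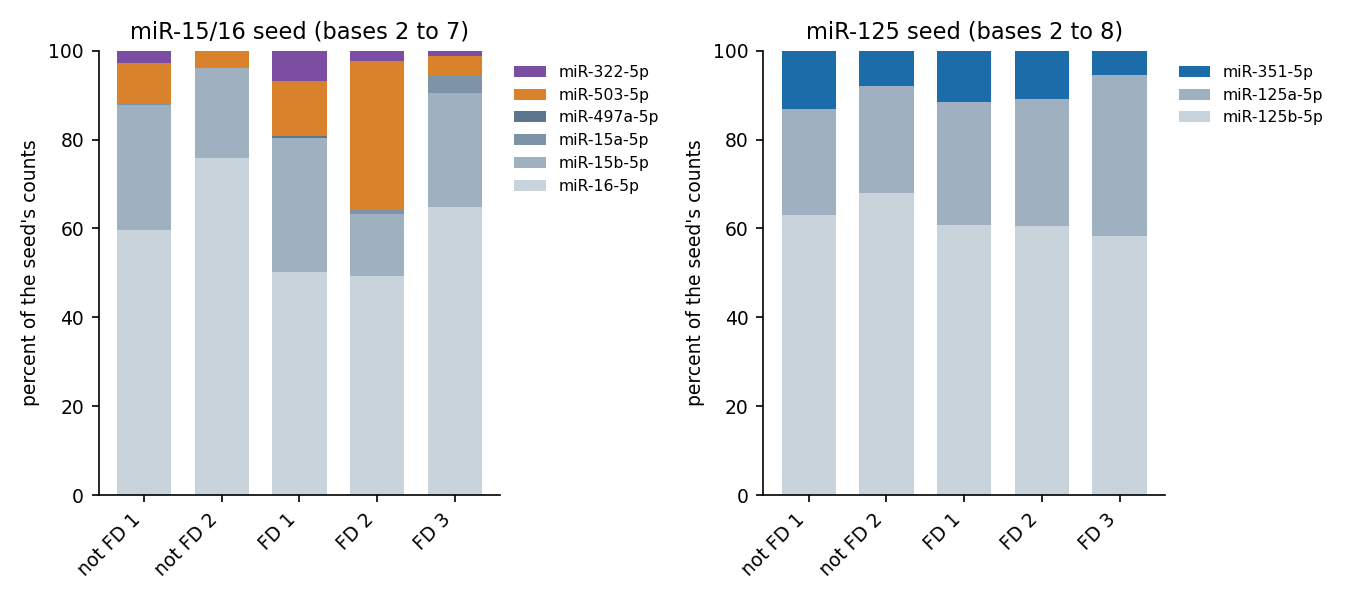
Percent of the counts of each seed family supplied by each miRNA per library (FD, freeze-dried). Left, the miR-15/16 seed, with miR-503-5p in orange and miR-322-5p in purple; right, the miR-125 seed, with miR-351-5p in dark blue, between 5.37% and 13.1%.

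The pattern of miR-351-5p over the 5 libraries was compared with that of 192 others that averaged 100 CPM or more, as the root mean square difference of centred log2 CPM. Nearest were miR-574-3p (0.14), miR-29a-3p (0.17) and miR-148a-3p (0.27), against a median of 0.94. miR-574-3p stood at 1347 and 567 CPM in not freeze-dried EVs and at 1342, 1447 and 586 CPM in freeze-dried EVs. Of the cluster's own strands, miR-322-3p was 9th at 0.39 and miR-503-5p 47th at 0.65. miR-351-3p, from the same hairpin, was 95th at 0.93, miR-322-5p 147th at 1.56 and miR-450a-5p 175th at 3.36. miR-29a-3p was also among the 5 miRNAs called lower in the shallow libraries.

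Short motifs known from other work on the loading of miRNAs into vesicles were searched in the mature sequences, on the RNA strand itself. GGAG was found in 1 of 8 members, miR-351-5p, from base 8 of the sequence printed above, and in 14.2% of the 1675 table entries with a RefSeq sequence. GGCU was found in 0 of 8 members and in 13.3% of those entries.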

How the data were processed

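Raw read counts per mature miRNA in 5 libraries were used as deposited by the authors, in 1 table of 1966 rows with 0 rows of another kind. Per the submitters' processing notes, the tools were featureCounts 1.5.0-p1, Bowtie 1.1.2, cutadapt 2.3, FastQC and bcl2fastq 2.20, and the build was GRCm38. Not given in the sources used here are the miRNA annotation and the handling of strand, duplicates and multiple matches. Groups came from the sample titles. Counts were fitted with edgeR 4.0.16 (quasi-likelihood, TMM, low-count filter by group) over the whole table, with Benjamini-Hochberg adjustment over 327 miRNAs and a threshold of 0.05. An SE is the log2 fold change divided by the square root of F. Shares are of raw counts. Exact permutation tests over libraries double the smaller one-sided p. The edgeR fit of the treatment groups was tested on simulated data drawn without a depth-class difference. The depth model, DESeq2 and limma-voom were not tested in this way. Alternatives used DESeq2 1.42.0, limma-voom (limma 3.58.1), other scalings, filters, thinning and left-out libraries. All members are named, with the locus's other strands, seed relatives with counts and the 3 miRNAs nearest in pattern. The members, lists, depth classes and tests were chosen with earlier results of these data known. Sequences are from RefSeq, where 1675 rows matched. miR-497b lacks the miR-15/16 seed and was dropped from its list, and miR-1907, which had no matched sequence, was left out of it.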

Additional observations from a re-analysis of the deposited data

How the results depend on the processing

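No member was called between the groups under any of 16 alternatives, and of 123 fold changes of members under them 110 kept their sign. Only 4 members were tested where at least 10 counts were required in every library, and 7 after thinning, so the absent strands could not be called there. miR-351-5p, at 0.01, became -0.042 with RLE size factors, -0.044 with DESeq2, -0.094 with upper-quartile scaling, -0.13 on raw totals (which shift the median of all miRNAs by -0.11), -0.023 after thinning, -0.18 with deep libraries alone and -0.21 with the depth term. Leaving out 1 library gave -0.54 to 0.90. miR-503-3p became -0.85 with the depth term and ranged from -0.051 to 1.15 without 1 library, and miR-322-3p from -0.27 to 1.89. The count of miRNAs lower after freeze-drying, 0, became 1 in the deep libraries and 4 with the replicate block, none of them members. The replicate block rests on 2 shared numbers (freeze-dried replicate 3 has no partner), whose deviations correlated at 0.13 and -0.10, so nothing shows that the numbers pair the samples. The difference in cluster share, 0.0747 points, became -0.136 with deep libraries alone, and leaving out 1 library gave -0.598 to 0.747. The miR-503 strand difference became -3.22 with deep libraries alone and -0.446 with pooled counts, and on leaving out 1 library ranged from -0.148 to 14.2. The miR-351 strand difference became -0.0307 in the deep libraries. The group difference in the log2 ratio of miR-503-5p to miR-322-3p, 0.26, ranged from -0.13 to 0.66 on leaving out 1 library and was 0.79 with deep libraries alone. Of the depth results, chosen after the data were examined, the 2 members called lower became 0 with limma-voom and ranged from 0 to 3 without 1 library, and the 5 miRNAs called lower became 10 with upper-quartile scaling or no count filter, 11 with DESeq2 and 0 with limma-voom, and ranged from 0 to 11. Leaving out 1 library, the depth term of miR-503-3p ranged from -4.83 to 0.28 and that of miR-351-3p from -2.32 to 0.20, both above 0 without freeze-dried replicate 3. The cause was not tested.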
